A study of Mus musculus with 2 samples.

Results

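The genes described here build the centrosome and the cilium. They were the protein-coding genes whose RefSeq symbol begins with Cep, Ift or Bbs followed by a digit, or with Tubg, and 67 of 21000 protein-coding genes matched: 38 Cep genes, 14 Ift genes, 8 Bbs genes and 7 genes of γ-tubulin and its complex. The rule used symbols only and no measured value, but the genes were chosen with earlier results of these data known. NRF1, nuclear respiratory factor 1, was profiled by chromatin immunoprecipitation followed by sequencing (ChIP-seq) in skeletal muscle of wild-type mice. The study asked whether NRF1 also binds the DNA that the glucocorticoid receptor and the demethylase LSD1 bind. The mice were male and of a C57Bl/6J background, the target genes are described for an age of 9 weeks, and the labels themselves give no age, treatment or muscle. The labels put 2 libraries in 1 group of the same genotype, tissue and antibody, but the second is listed as input DNA elsewhere in the study's records. The only list used, with 3226 peaks, names the first library in each of them. No value below therefore has a replicate error, no comparison of conditions is possible, and the read depth is unknown.

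The centrosome is a pair of centrioles in a protein matrix and is a main organiser of microtubules, which grow from rings of γ-tubulin. The older centriole carries appendages that dock it at the membrane, where it becomes the base of a cilium. Intraflagellar transport (IFT) trains carry cargo along the cilium, the IFT-B complex mainly outwards and the IFT-A complex mainly back, and the BBSome, whose subunits are mutated in Bardet-Biedl syndrome, moves membrane proteins out of it. When muscle cells fuse and mature, the organisation of microtubules passes from the centrosome to the nuclear envelope. Whole muscle also holds nuclei of other cell types, so occupancy in a few nuclei and weak occupancy in all of them cannot be told apart, and a list of peaks holds no marker by which the tissue could be checked.

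NRF1 occupied the promoters of 25 of the 67 genes, or 37.3% (Wilson 95% interval 26.7 to 49.3%). Among all protein-coding genes 13.4% had a promoter peak, that is, a summit between 1000 bp before and 100 bp after a transcription start. They included Cep19, Cep41, Cep57l1, Cep63, Cep72, Cep78, Cep85, Cep120, Cep162, Cep170, Cep192, Cep250 and Cep295; Ift22, Ift27, Ift80, Ift122 and Ift172; Bbs2 and Bbs9; and Tubg1, Tubg2, Tubgcp3 and Tubgcp4. By family these were 14 of 38 Cep genes (36.8%, interval 23.4 to 52.7%), 5 of 14 Ift genes (35.7%, 16.3 to 61.2%), 2 of 8 Bbs genes (25%, 7.15 to 59.1%) and 4 of 7 Tubg genes (57.1%, 25 to 84.2%). The intervals of the families overlap. They cover counting error over genes only, and no test against other genes was run.

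**Figure D1:**
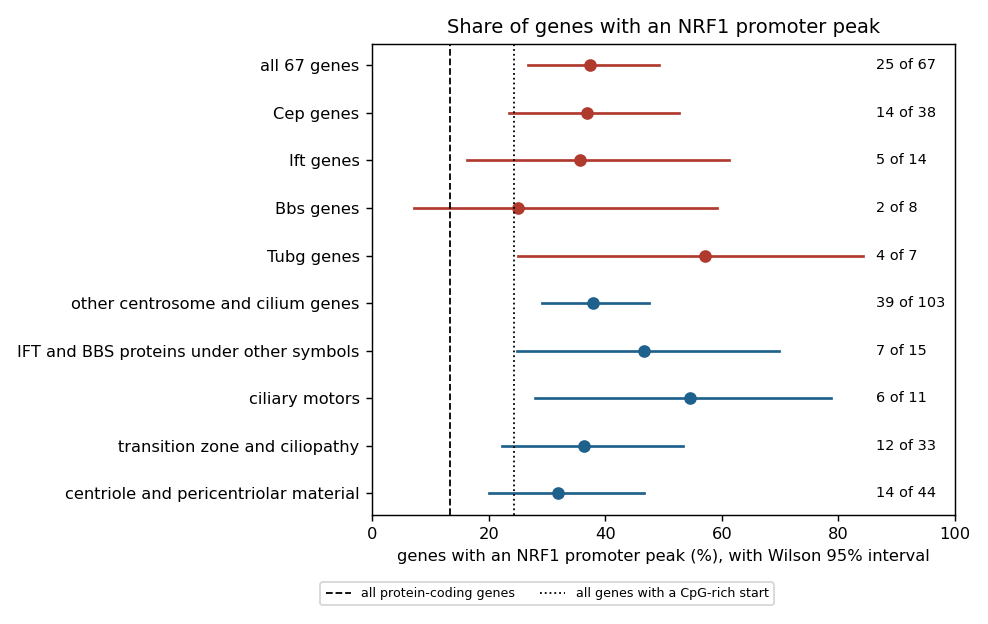
Share of genes with an NRF1 promoter peak (x axis, percent) for all 67 genes and each symbol family (red) and for other centrosome and cilium genes (blue). Points are shares, bars Wilson 95% intervals, the dashed line marks 13.4% of all protein-coding genes and the dotted line 24.3% of genes with a CpG-rich start; 25 of 67 genes had a peak.

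NRF1 is known to bind a palindrome, GCGCATGCGC, in which the letters of either strand read alike from 5′ to 3′. It was searched within 100 bp of each summit on both strands. The sequences that follow show what lay under peaks among the highest of each family, whatever their rank among all promoter peaks, and under every peak with an exact copy. Each is 30 bases of mm10 (RefSeq sequence of GRCm38), read 5′ to 3′ on the strand of the gene, and the 10 bases in capitals are the copy nearest the summit.
Cep295, chr9:15357846-15357875, minus strand: gggcggggctGCGCGTGCGCcgagctggag
Cep57l1, chr10:41809898-41809927, minus strand: gccggccaggGCGCATGCGCtttccgcggt
Tubg1, chr11:101119902-101119931, plus strand: acgcccacgcGCGCATGCGCagacgctccg
Tubgcp3, chr8:12672151-12672180, minus strand: agccgggagaGCGCACGCGCgtctcgcgcg
Tubgcp4, chr2:121171154-121171183, plus strand: ggagcccaggACGCATGCGCgacggcaccg
Ift122, chr6:115853551-115853580, plus strand: gcggttcattGCGCATGTGCgttgctaagg
Ift172, chr5:31291165-31291194, minus strand: aggactcactGCGCTTGCGCacgtcctgtt
Ift80, chr3:69004853-69004882, minus strand: ggccgttcggGCGCATGCGCgggctctacc
Cep57l1, Tubg1 and Ift80 hold the exact palindrome, and the other 5 copies differ from it at 1 base.

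Other peaks lay over a poorer match. At Bbs2 and Ift22, for example, only copies with 2 mismatches were found, and the stronger, Bbs2, is shown.
Bbs2, chr8:94098525-94098554, minus strand: gggagggtccGCGCAGGCGTagagagagtt
At 5 peaks no copy with up to 2 mismatches was found, and the 30 bases at the summit are given for these, with no capitals. In the promoter of Cep250 a copy with 1 mismatch lay farther off, 179.5 bp from the summit.
Bbs9, chr9:22475663-22475692, plus strand: gactacaacacccagcaagccctgcggtcc
Cep250, chr2:155956437-155956466, plus strand: gtaagttggctgccagtacttaatatggcg
Cep63, chr9:102626290-102626319, minus strand: ggccccgcccttcttctgggtcacgtgact
Cep85, chr4:134187271-134187300, minus strand: ctctgtgtcatgcgcagagcgacgtaccgg
Cep170, weaker of its peaks, chr1:176814648-176814677, minus strand: aagagacgggttggcgcgccgcgccctttc

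The strength of a peak is given by the authors as a fold enrichment, the signal at the summit over the control background. The 25 genes had 26 promoter peaks, since Cep170 had 2. The middle of these 26 values was 10.48 (quartiles 8.07 and 14.65). For all 2607 promoter peaks it was 11.09 (quartiles 7.90 and 16.36). The genes thus had a peak in a larger share than all genes did, at peaks of about the usual strength. The weakest promoter peak of the genes had a fold enrichment of 3.70 and the strongest of 29.95, within the range of 3.01 to 49.95 of all promoter peaks.

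**Figure D2:**
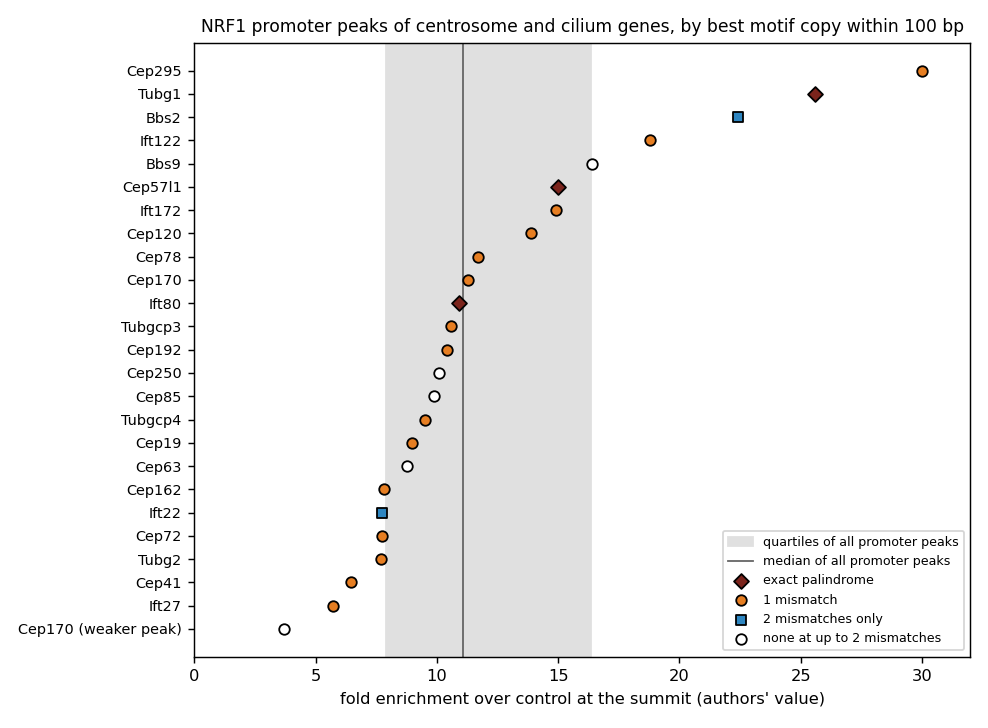
Fold enrichment at the summit (x axis, the authors' value) for 25 of the 26 promoter peaks (y axis, by gene), with the marker showing the best copy of the motif within 100 bp. The grey band spans the quartiles of all 2607 promoter peaks and the line their median of 11.09; Cep295, Tubg1, Bbs2, Ift122 and, at its edge, Bbs9 lie to the right of the band.

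The genes are taken below by role, in groups assigned from textbook knowledge, and another sorting could change the counts. The groups are small with wide intervals, none was tested, and 13.4% of all protein-coding genes had a promoter peak. Among genes of centriole assembly and length, 5 of 10 had a promoter peak (50%, interval 23.7 to 76.3%). Cep295, which is needed for a new centriole to mature into a centrosome, had the strongest peak of the 67 genes, with a fold enrichment of 29.95, above 97.7% of all promoter peaks. Its peak, chr9:15357755-15358064, had its summit at -89 bp (positions are counted from the start, negative before it) and a copy of the motif centred 16.5 bp from the summit. Cep120, which promotes the elongation of centrioles, followed with 13.9, and Cep192, which brings the duplication kinase PLK4 to the centriole, with 10.4. At Cep192 the summit lay at -6 bp and the motif 0.5 bp from the summit. Cep85 (9.87) and Cep63 (8.77), both linked to the start of centriole duplication, were lower. The values of Cep192, Cep85 and Cep63 were all below the median of all promoter peaks, 11.09. The members of this group without a promoter peak were Cep44, Cep76, Cep97, Cep135 and Cep152. Cep152 is the binding partner of Cep63, and the summit nearest to it was 48.0 kb away. Thus only 1 gene of this pair had a promoter peak.

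Among genes of the centriole appendages and of the recruitment of cilium factors, 2 of 7 had a promoter peak (28.6%, interval 8.22 to 64.1%). Cep170, a protein of the subdistal appendages, had a peak of fold enrichment 11.3 whose summit lay at -244 bp, counting from its closest start, and a second peak of 3.70 at -710 bp. The second was weaker than all but 0.345% of promoter peaks, at a −log10 q of 2.13. Cep19, which acts at the mother centriole in the recruitment of IFT-B, had a peak of 8.97 with its summit at -2 bp. No promoter peak was called at Cep83, Cep89 and Cep164, which are proteins of the distal appendages, nor at Cep128 and Cep350. Of the Cep genes grouped under centriole cohesion, Cep250 had a peak of 10.1 and Cep68 had none.

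In the group of the transition zone, cilium and centriolar satellites, 5 of 8 genes had a promoter peak (62.5%, interval 30.6 to 86.3%). Fold enrichments among them were 11.7 at Cep78, 7.84 at Cep162, 7.74 at Cep72 and 6.44 at Cep41. CEP41 is needed for the glutamylation of tubulin in cilia, and its promoter peak was the narrowest of the 26, at 143 bp. These 4 peaks held a copy of the motif within 100 bp, at 2.5 bp from the summit in Cep78 and at 73.5 bp in Cep41. Cep290, a large protein of the transition zone, Cep126 and Cep131 had no promoter peak, and the nearest summit to Cep290 was 102 kb away.

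Of the 11 remaining Cep genes 1 had a promoter peak (9.09%, interval 1.62 to 37.7%), against 13.4% of all protein-coding genes. This gene was Cep57l1. Its fold enrichment was 15, its summit lay at -28 bp from the nearest start, and it was the only one of the 26 peaks with more than 1 exact palindrome. The copies begin 23 bp apart in a stretch of 53 bases upstream of the start, shown with both in capitals.
Cep57l1, chr10:41809898-41809950, minus strand: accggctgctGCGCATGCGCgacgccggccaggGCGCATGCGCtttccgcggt
Its paralogue Cep57 had no promoter peak, and the nearest summit was 78.0 kb from a start.

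Intraflagellar transport genes were occupied in both complexes. In IFT-A, 1 of 3 genes had a promoter peak (33.3%, interval 6.15 to 79.2%). This was Ift122, a core subunit, with a fold enrichment of 18.8 and its summit 15 bp after the start. Ift43 and Ift140 had none. In IFT-B, 2 of 7 core genes had a peak (28.6%, interval 8.22 to 64.1%), Ift22 with 7.74 and Ift27 with 5.72. Both encode small GTPase-like subunits and both were below the lower quartile of all promoter peaks. Ift46, Ift52, Ift74, Ift81 and Ift88 had none. Of the peripheral IFT-B genes 2 of 4 had a peak (50%, interval 15 to 85%), Ift172 with 14.9 and Ift80 with 10.9. Ift20 and Ift57 had none. The Ift80 summit lay at -295 bp, with an exact palindrome 2.5 bp from it, and the Ift27 summit at -382 bp.

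The BBSome had 2 of 6 subunit genes with a promoter peak (33.3%, interval 9.68 to 70%). Both were above the upper quartile of all promoter peaks. Bbs2 had a fold enrichment of 22.4, above 91.3% of all promoter peaks, with its summit at -52 bp. With GENCODE M21 basic starts its summit was no longer in its promoter, and 1 Bbs gene had a promoter peak. Bbs9 had 16.4, above 75.5%, with its summit at -37 bp. As shown above, neither summit had a copy with fewer than 2 mismatches within 100 bp. Bbs1, Bbs4, Bbs5 and Bbs7 had no promoter peak, nor had Bbs10 and Bbs12, the chaperonin-like proteins that help assemble the BBSome.

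Both γ-tubulin genes had a promoter peak. Tubg1, which encodes the main γ-tubulin, had a fold enrichment of 25.6, above 94.7% of all promoter peaks, and the highest −log10 q of the 26 peaks, 105.8. Tubg2, its close paralogue on the same chromosome, had 7.7 and a −log10 q of 9.51. Their summits lay at -167 and -30 bp. Of the genes of the γ-tubulin complex proteins, which hold γ-tubulin in its ring, Tubgcp3 had a peak of 10.6 and Tubgcp4 of 9.51, while Tubgcp2, Tubgcp5 and Tubgcp6 had none.

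Most summits lay just before the start. Of the 26, 23 were before the start and 3 after it, at Ift122, Tubgcp4 and Cep72, the last being the farthest after, at 54 bp. The median position was -52 bp, with quartiles of -192.2 and -26.5 bp, and for all promoter peaks it was -50 bp, with quartiles of -116 and -7 bp. Within 100 bp of a start were 15 of 26 summits, or 57.7%, against 71.2% of all promoter peaks. For the genes the distance is to a start of that gene, whereas for all peaks it is to the nearest start of any gene with the summit in its promoter, which can only be as close or closer. The 6 summits more than 200 bp away included those of Cep170 (both peaks), Cep85, Ift80 and Ift27.

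**Figure D3:**
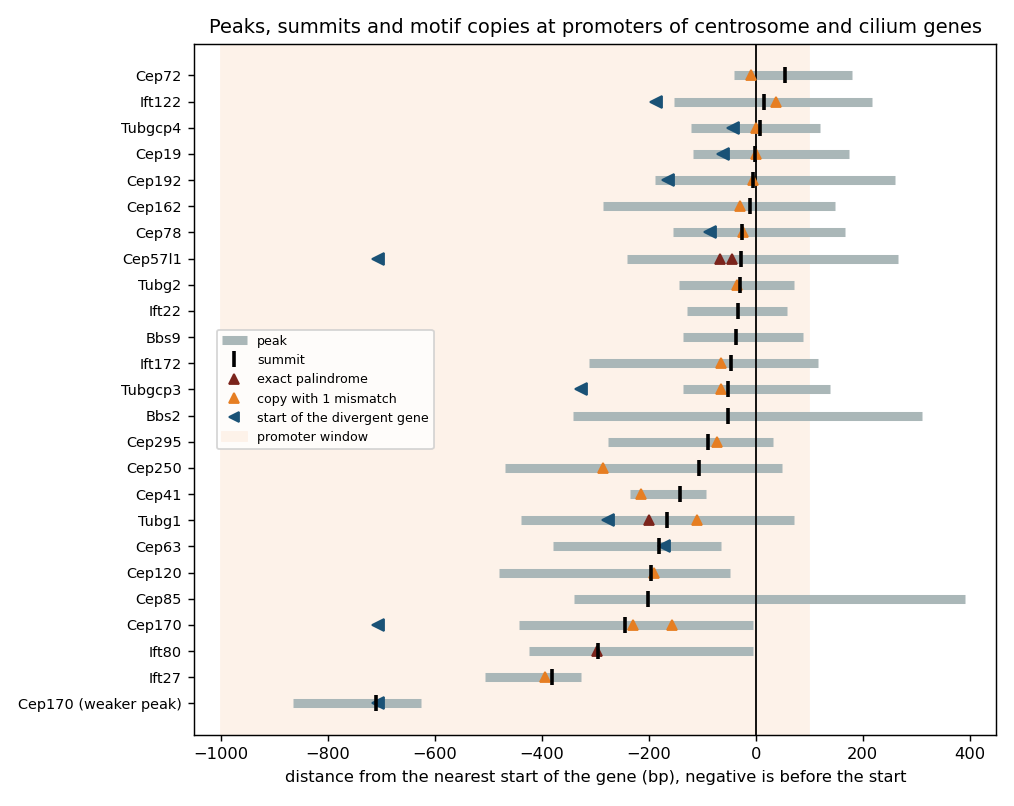
Peaks (grey bars), summits (black ticks), copies of the motif (triangles, dark red exact and orange with 1 mismatch) and starts of divergent genes (blue) at 25 of the 26 promoter peaks, by distance in bp from the nearest start of the gene. Most summits lie before the start, and the orange or dark red triangles mostly sit beside the tick.

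Many of these promoters are divergent, that is, shared with a gene that runs the other way. Of the 26 peaks, 12 had their summit also in the promoter of another gene, or 46.2% (interval 28.8 to 64.5%), against 17.5% of 2556 promoter peaks at protein-coding genes. The other gene was protein-coding at 9 of the 26 (34.6%), against 12.1% of those 2556. This went with the arrangement of the genes: 23 of the 67, or 34.3%, had another gene's start on the opposite strand within 1000 bp upstream, against 11.7% of all protein-coding genes. A promoter peak was present at 12 of these 23 and at 13 of the other 44. Among all protein-coding genes it was present at 31.2% of those with such a neighbour and at 11.0% of those without.

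For a shared peak the list does not say which gene it serves, and the summit was not always nearer to the centrosome or cilium gene. It was nearer to the start of the other gene at Cep63, where it lay at -181 bp from its start and 9 bp after that of Anapc13, a subunit of the anaphase-promoting complex. At Tubg1 it lay at -167 bp from its start and at -109 bp from that of Retreg3, a receptor for the breakdown of endoplasmic reticulum. The weaker Cep170 peak lay 3 bp after the start of Sdccag8, itself a gene of the centrosome and of inherited kidney disease with ciliary defects, while the stronger one lay at -244 bp from Cep170 and at -463 bp from Sdccag8. The summit was nearer to the gene of the list at Cep19 (-2 bp, against -60 bp for Pigx), Cep57l1 (-28 bp, against -678 bp for Sesn1), Ift122 (15 bp, against -202 bp for the DNA repair gene Mbd4) and Tubgcp4 (7 bp, against -50 bp for Zscan29). The partners at Cep78 (-26 bp, against -60 bp), Cep192 (-6 bp, against -158 bp) and Tubgcp3 (-52 bp, against -275 bp), were non-coding genes, and there too the summit was nearer to the gene of the list. These are 11 of the 12 shared peaks, and the other is not described here.

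The bases between the starts were read for 6 of the pairs at most 300 bases apart, and no known transcript covers them. Those of Cep192 and its neighbour, which are as close, were not used here. The 2 pairs of these with a whole copy of the motif between the starts are shown on the strand of the first gene, with copies of at most 1 mismatch in capitals.
Tubg1 and Retreg3, chr11:101119842-101120116, plus strand: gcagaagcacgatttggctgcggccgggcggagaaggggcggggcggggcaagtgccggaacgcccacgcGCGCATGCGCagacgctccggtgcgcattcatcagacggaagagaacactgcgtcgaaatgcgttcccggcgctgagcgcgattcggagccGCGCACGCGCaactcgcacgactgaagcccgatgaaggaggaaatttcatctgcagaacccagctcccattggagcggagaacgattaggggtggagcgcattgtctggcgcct
Cep78 and C130060C02Rik, chr19:15984990-15985074, minus strand: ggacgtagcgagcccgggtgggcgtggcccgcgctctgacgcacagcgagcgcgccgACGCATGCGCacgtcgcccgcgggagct
Between Tubg1 and Retreg3 there are 275 bases with an exact and a 1-mismatch copy, and between Cep78 and its non-coding neighbour 85 bases with 1 copy.

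With at most 1 mismatch, the motif lay within 100 bp of 18 of the 26 summits, or 69.2% (interval 50 to 83.5%), against 65.9% of all promoter peaks. An exact palindrome was present at 3 of 26 (11.5%), against 10.9%, and at least 2 copies at 3 of 26, against 11.9%. With up to 2 mismatches the shares were 80.8% and 91.0%. Where a copy was present, its centre lay a median of 13.5 bp from the summit, against 12.5 bp for all promoter peaks, and 15 of 18 were within 25 bp. The median strength was 10.74 for the 18 peaks with a copy (quartiles 8.12 and 14.65) and 9.97 for the 8 without (8.52 and 14.27), so that the quartiles overlapped. Over all promoter peaks these medians were 12.87 and 8.58.

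The copies came in 6 versions, counting a version and its reverse complement as 1. GCGCAAGCGC was found at 5 genes, Cep19, Cep120, Cep162, Ift172 and Tubg2, whereas 5.14% of all promoter peaks held it. GCGCACGCGC was found at Cep192, Cep295, Tubg1 and Tubgcp3 and in 16.6% of all promoter peaks. GCGCAGGCGC was found at Cep41, Cep72, Cep170 and Ift27 and in 23.4%, and ACGCATGCGC at Cep78 and Tubgcp4 and in 7.02%. GCACATGCGC, shown above as its reverse complement, was found at Ift122 alone and in 2.53% of all promoter peaks. The sixth was the exact palindrome, in 10.9%. These versions were listed after the copies had been found, and none was tested.

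Copies of the motif were compared between promoters with and without a peak, and so were CpG-rich starts. Over the whole promoter window, 19 of the 25 genes with a peak held a copy with at most 1 mismatch, or 76.0% (interval 56.6 to 88.5%), and 1 of the 42 genes without a peak, or 2.38% (0.422 to 12.3%). The exception was Cep112, with a copy at -258.5 bp from a start. Of the 20 genes with such a copy 19 had a peak. Among all protein-coding genes the copy was present in 12.1% of promoters, in 68.4% of those with a peak and in 3.45% of those without, and 75.4% of the genes that held it had a peak. The exact palindrome was present in 1.75% of all promoters, and 89.4% of the genes that held it had a peak. It was in the promoters of Cep57l1, Ift80 and Tubg1, which all had a peak, and in none of the 42 without.

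CpG-rich starts, with a GC content of at least 55% and a ratio of observed to expected CpG of at least 0.65 within 200 bp of a start, were present in 55 of the 67 genes (82.1%), against 49.5% of all protein-coding genes. They were present in 21 of 25 genes with a peak (84.0%) and in 34 of 42 without (81.0%), and over all protein-coding genes in 89.9% with a peak and 43.3% without. The closeness of the shares in the 67 genes depended on the definition: with CpG richness taken over the whole promoter, 17 of the 67 genes passed, 9 of 25 with a peak and 8 of 42 without. With a CpG ratio of at least 0.75 within 200 bp, 47 passed, 16 of 25 with a peak and 31 of 42 without, so that the order of the shares was the other way round. Among the CpG-rich starts 21 of 55 genes had a promoter peak, or 38.2% (interval 26.5 to 51.4%), where 24.3% of all genes with such a start had one. Of the 12 genes without such a start, 4 had a peak, among them Ift22, Ift27 and Ift80, against 2.69% of all genes of that kind. The part of CpG content in the share of the 67 genes was not tested.

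**Figure D4:**
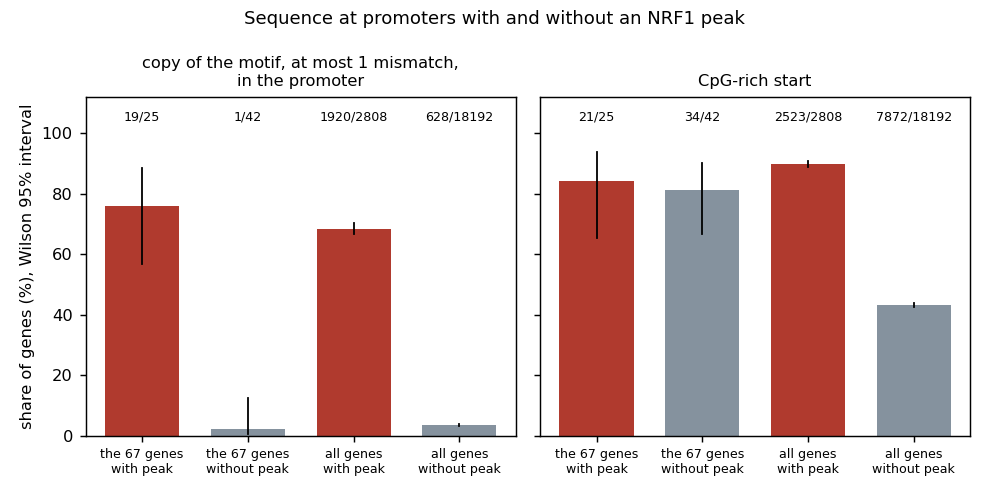
Share of genes (y axis, percent) whose promoter holds a copy of the motif with at most 1 mismatch (left) or that have a CpG-rich start (right), for the 67 genes and all protein-coding genes, with (red) and without (grey) a promoter peak; bars are shares and lines Wilson 95% intervals. The motif was in 19 of 25 promoters with a peak and 1 of 42 without, and CpG-rich starts in 21 of 25 and 34 of 42.

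The 42 genes without a promoter peak had, but for 1, no peak near them. The exception was Cep20, a short centrosomal protein, whose nearest summit was 105 bp after the start, 5 bp outside the window. That peak, chr16:14316927-14317375, had a fold enrichment of 12.9 and a copy of the motif with 1 mismatch within 100 bp of its summit. For the other 41 genes the nearest summit was at least 28.1 kb away, and the median over all 42 was 146 kb. The farthest was 1280 kb, at Ift74. Besides this peak, the transcribed span of the 67 genes held 1 summit outside their own promoters, in Cep85, 30128 bp after the start, with a fold enrichment of 9.66. Without the read depth, a site under the threshold for peaks cannot be told from an unoccupied one.

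**Figure D5:**
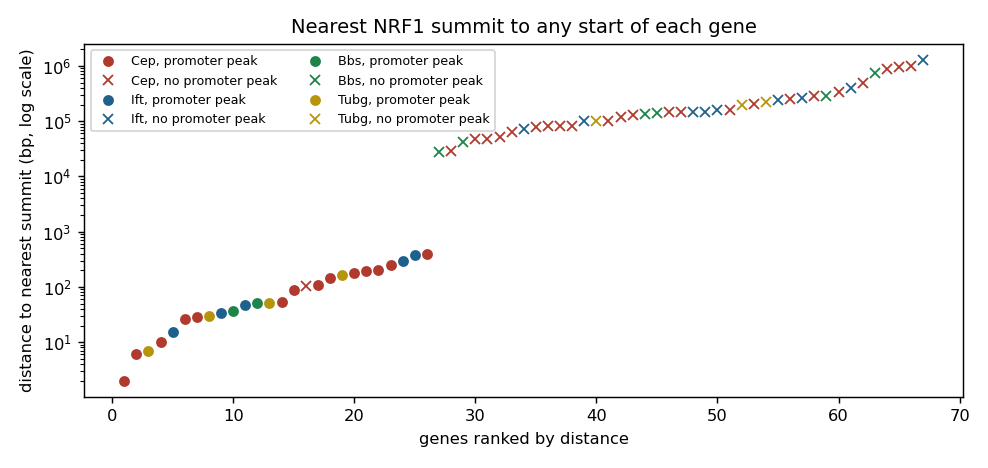
Distance in bp (log scale) from any start to the nearest NRF1 summit for each of the 67 genes, ranked; circles had a promoter peak and crosses had none, coloured by symbol family. The crosses begin at 28.1 kb except for Cep20 at 105 bp, and all circles lie at the lower left.

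Other genes of the centrosome and cilium that carry unrelated symbols were taken from a list based on textbook knowledge. This list was chosen with earlier results of these data known, and its share was not tested. Of these 103 genes 39 had a promoter peak, or 37.9% (interval 29.1 to 47.5%), against 13.4% of all protein-coding genes. It was present at 7 of 15 IFT and BBS genes under other symbols, including the IFT-A genes Wdr35 (fold enrichment 17.2) and Wdr19 (10.8), the IFT-B genes Hspb11 (15.1), Traf3ip1 (11.8) and Cluap1 (7.6), Mkks (15.1), a chaperonin-like BBS protein, and Arl6 (6.14), the GTPase that brings the BBSome to membranes. The IFT-A gene Ttc21b had none. Among ciliary motor genes 6 of 11 had a peak, among them the kinesin-2 genes Kifap3 (17.0) and Kif3a (14.8). The dynein-2 genes Wdr34 (11.7) and Wdr60 (10.0) also had one. No promoter peak was found at the kinesin-2 genes Kif3b and Kif17 or at the dynein-2 genes Dync2h1 and Dync2li1.

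Transition zone and ciliopathy genes had a promoter peak in 12 of 33 cases. The strongest was at Arl3 (15.8), a GTPase that releases lipid-modified cargo in the cilium, followed by C2cd3 (12.6) and B9d2 (12.5), and Ofd1 had one of 4.12. Among centriole and pericentriolar genes it was 14 of 44. Cntrob, encoding centrobin, a protein involved in the duplication of centrioles, had the strongest, with 33.6, and Tubd1, encoding δ-tubulin, had 18.2. The kinase Plk4 (9.80), its substrate Stil (5.68) and Cenpj (10.9), which act in the formation of centrioles, had a peak, whereas Sass6, Ccp110, Rttn and Spice1, which also act in it, had none. The Sdccag8 peaks are those of Cep170 and count in both lists. Other peaks named from the second list were shared too, including those of Cntrob (with Trappc1), Tubd1 (Rps6kb1), Arl3 (Sfxn2) and C2cd3 (Ppme1). So were those of Hspb11 (Lrrc42), Mkks (Slx4ip), Ofd1 (Trappc2), Cluap1, Kif3a and Kifap3, whereas those of Plk4, Stil and Cenpj were not. For the shared ones the list of peaks again does not say which gene is served.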

How the data were processed

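The series covers NRF1 ChIP-seq of wild-type mouse skeletal muscle. According to the methods of the study, single-end reads of 50 bp were aligned to mm10 (Bowtie 1.1.2), reads with several matches and those in blacklisted regions, named there for a human build, were dropped, and MACS2 2.2.7.1 called peaks against input DNA. The broad option is named in the methods, whereas the list has the narrow layout with summits. Nothing is said of pooling. The authors deposited, for each peak, a fold enrichment (a ratio to the control background), a −log10 q and the distance of the summit from the peak start, here used as another position value. In the deposited list, q was 0.01 or lower in 3219 peaks and higher in 7. Dropping reads with several matches can hide sites in repeated sequence, and the peak names mention duplicate removal, which can cap the strongest sites.

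Starts were those of 45756 known RefSeq transcripts of GRCm38, the assembly of mm10. Annotation and sequence were read with Python 3.11.15, pysam 0.24.0 and samtools 1.23.1. A gene counted as occupied if a summit lay in the promoter of any of its transcripts. Intervals are Wilson 95% intervals (scipy 1.17.1). The scripts were tested on simulated data. The 67 genes and the lists were chosen with earlier results of these data known, and the rule named every gene of the 67 with a promoter peak (1 is counted but not reported here by name), those without one as counts, with values where a summit lay within 2000 bp. Distances, values for other genes without a peak and those of the second list were given for examples chosen after the values were seen. All 103 symbols of the second list matched, since genes without a protein-coding RefSeq entry under these symbols had been left out of it. No test between groups was run, since 1 list of peaks exists. Alternatives changed the promoter window, overlap, thresholds, annotation, motif and CpG settings.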

Additional observations from a re-analysis of the deposited data

How the results depend on the processing

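Of 76 alternative values for 12 results, 67 stayed within 1.5 times the value reported for counts, the Wilson interval for the share of all genes, or the quartiles for the median. The number of genes with a promoter peak was 25 or 26 of the 67 with RefSeq starts and 24 of 65 with GENCODE M21 basic starts. Cep20 was gained with promoters widened to 2000 bp upstream and 500 bp downstream, with 500 bp either side and with any overlap of peak and promoter, and Bbs2 was lost with the GENCODE starts, where 1 Bbs gene then had a peak. The share of all protein-coding genes moved to 14.7%, 14.1% and 14.2% with those 3 promoter settings, and to 12.8% both at a q of at most 1e-05 and at a fold enrichment of at least 5. With no mismatch, 3 of the 26 peaks held the motif. With CpG richness taken over the promoter, 9 of 17 CpG-rich genes had a peak, against 27.6% of all genes that are CpG-rich by it, and 17 rather than 55 of the 67 genes pass that definition. With at most 1 mismatch in place of none, 1 gene without a peak held the motif, which was Cep112. Leaving out each replicate was not run, because there is 1 list of peaks, and the unknown depth bears on each gene for which no peak was found. No paired analysis was possible because there is 1 group and no second one to pair it with.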
